A study of Homo sapiens with 10 samples.

Results

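The genes described here are 10 members of the YAP and TAZ pathway, taken by name from the 28265 gene symbols with deposited counts. They are *YAP1* and *WWTR1*, which encode the co-activators YAP and TAZ, their DNA-binding partner *TEAD1*, the target genes *CCN1*, *CCN2* and *ANKRD1*, and *AMOTL1*, *AMOTL2*, *AJUBA* and *LATS2*, which encode regulators of the pathway. All 10 were found and all 10 passed the filter on low counts (at least 5 counts in at least 2 libraries). Bulk RNA-seq was run on NKX2-1 GFP+ cells, FACS-sorted out of thyroid organoids of the human ESC line ESIBIe003-A-6, with 2 libraries at each of days 16, 23, 31, 38 and 45. The line is a selected clone that carries a GFP reporter in *NKX2-1* together with transgenes for *NKX2-1* and *PAX8* that doxycycline switches on, and every group had been through Activin A and a pulse of doxycycline and was grown in Matrigel in medium with serum. By the methods of the study, cells of day 16 were in basal medium, and cells of days 23 and 31 had received 8-br-cAMP, a cell-permeable cAMP analogue. The cells of day 38 had been moved to hrTSH, a recombinant thyrotropin, with dexamethasone, a glucocorticoid. Those of day 45 had in addition received SB431542, an inhibitor of TGFβ receptor kinases. The sample labels give cAMP for day 16, cAMP for day 31 and no dexamethasone for day 45. By the schedule of the study the medium changed shortly before day 31, so whether those cells had left cAMP is not settled by the sources. Each library pooled several culture wells. Time and medium change together, so their parts in any difference cannot be told apart.

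YAP and TAZ are transcriptional co-activators that do not bind DNA themselves and act mostly through the TEAD factors. The Hippo kinase cascade ends in the kinases LATS1 and LATS2, which phosphorylate YAP and TAZ and thereby keep them out of the nucleus or mark them for degradation. Cell shape, matrix stiffness, cell contacts and actin tension feed into the same switch, so that YAP and TAZ activity is set largely at the protein level. *CCN1*, *CCN2* and *ANKRD1* are widely used as readouts of that activity, and *LATS2*, *AMOTL2* and *AJUBA* encode brakes or scaffolds, the first 2 of which are themselves induced by it. mRNA counts report on the genes and not on where the proteins are.

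Upstream sequences are shown for *CCN2* and *ANKRD1*, the readout genes with a window and the members with the most TEAD motifs, and for *AMOTL2*, the member with the largest change between neighbouring days. They are the 250 bases before the transcription start in RefSeq on GRCh38.p14, written 5′ to 3′ on the strand of the gene, with the motif GGAATG or its reverse complement CATTCC in capitals. The first is *CCN2* (chr6:131951373-131951622), the second *ANKRD1* (chr10:90921088-90921337) and the third the downstream one of the *AMOTL2* starts (chr3:134374448-134374697), and all lie on the minus strand.
CCN2: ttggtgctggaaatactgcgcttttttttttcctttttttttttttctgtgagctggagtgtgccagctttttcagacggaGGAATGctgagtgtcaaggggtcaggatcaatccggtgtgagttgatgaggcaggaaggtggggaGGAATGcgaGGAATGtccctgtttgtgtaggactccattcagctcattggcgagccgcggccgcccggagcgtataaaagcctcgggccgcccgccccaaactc
ANKRD1: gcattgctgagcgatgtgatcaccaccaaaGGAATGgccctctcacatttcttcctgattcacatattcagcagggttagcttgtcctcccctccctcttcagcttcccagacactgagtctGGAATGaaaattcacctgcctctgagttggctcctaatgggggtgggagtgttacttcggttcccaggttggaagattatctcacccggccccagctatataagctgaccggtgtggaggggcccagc
AMOTL2: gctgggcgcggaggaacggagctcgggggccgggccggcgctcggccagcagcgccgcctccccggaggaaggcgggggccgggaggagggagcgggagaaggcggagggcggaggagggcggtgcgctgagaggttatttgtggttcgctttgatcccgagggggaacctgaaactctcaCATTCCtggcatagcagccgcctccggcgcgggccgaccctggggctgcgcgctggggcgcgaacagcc

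*CCN2* held 3 matches, beginning 169, 104 and 95 bases before the start, *ANKRD1* held 2, at 220 and 128 bases, and *AMOTL2* held 1, at 69 bases on the reverse strand. Among 35116 RefSeq promoter windows of the same length, searched on both strands, 11.9% held at least 1 match, 0.940% held 2 or more and 0.0826% held 3 or more. A match to TGANTCA, the AP-1 motif, stood in *ANKRD1* 195 bases before the start and did not overlap the TEAD matches. That motif was present in 6.57% of all windows. Of the 8 members with a window, *YAP1* and *AJUBA* also held 1 TEAD match, *AJUBA*, *AMOTL2* and *WWTR1* had 2 windows each, *WWTR1*, *AMOTL1* and *LATS2* held TGACG or CGTCA, the core of the cAMP response element, and 21.2% of all windows held it. In *AJUBA* and *AMOTL2* the other window held no TEAD match, and in *WWTR1* the other held none of the motifs searched. The shares are per window and not per gene. These matches describe letters and not bound sites.

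Counted totals ran from 7247268 reads (day 45, replicate 1) to 10333933 (day 38, replicate 1), and the 10 genes together made up 0.163 to 0.228% of each library. Levels are given as CPM, counts scaled to a common library size with edgeR's TMM factors. A floor of 3 counts corresponded to 0.307 to 0.435 CPM, far below every value of these genes, and the lowest count behind any of them was 117. Floors cover counting error only. The sorted cells carried thyroid markers at every day, with *PAX8* at 503 to 650 CPM as a daily mean and *NKX2-1* at 62.4 to 154 CPM. Their thyroid expression was not constant, since *TG*, which encodes thyroglobulin, had daily means of 11.2, 192, 206, 5209 and 7742 CPM and *TSHR*, the thyrotropin receptor, 13.2, 71.6, 77.5, 150 and 120 CPM. The transcription factors *NKX2-1*, *FOXE1* and *HHEX* fell from day 38 to day 45, with daily means of 143 and 62.4, 373 and 211, and 283 and 155 CPM. The part of these shifts in the results was not tested. In bulk samples, fewer expressing cells and less RNA per cell cannot be told apart.

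Over the 5 days, 9 of the 10 genes differed between days (edgeR's quasi-likelihood F test over the day means, Benjamini-Hochberg adjusted over 21014 genes, adjusted p from 7.6e-09 for *AMOTL2* to 0.029 for *ANKRD1*), against 36.3% of all genes tested. The gene without a call was *LATS2* (adjusted p = 0.0953). The count was 8 with DESeq2 and 7 without day 31 replicate 1. They did not share a course. The highest daily mean fell on day 16 for 7 of the 10 genes, on day 31 for *AMOTL1*, on day 38 for *CCN2* and on day 45 for *WWTR1*, as the plot of CPM by library shows. The day of the highest mean was not tested, and the share of all genes highest at day 16 was not computed. Of these 7 genes, only *YAP1* and *AJUBA* were called between days 16 and 45.

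*YAP1* and *WWTR1* went in opposite directions over the protocol. *YAP1* lies on chromosome 11 of GRCh38 from 102110447 to 102233424 on the plus strand. *YAP1* measured 522 and 584 CPM (day 16), 461 and 426 (day 23), 429 and 388 (day 31), 409 and 418 (day 38) and 330 and 338 (day 45). Both day 16 libraries were above all others and both day 45 libraries below all others, while day 31 overlapped days 23 and 38. Over the course *YAP1* fell by 0.73 on the log2 scale, with SE its standard error (SE 0.12, adjusted p = 1.1e-05 in edgeR), to 60.3% of its day 16 mean. None of the weekly steps was called, with log2 fold changes of −0.32, −0.12, 0.02 and −0.31 in order. The value of 0.02 from day 31 to day 38 changed sign with DESeq2, with upper-quartile factors and with library size alone, where it was −0.20 and equal to the median of all genes. The steps to day 23 and to day 45 passed the threshold under some alternatives, at −0.32 with DESeq2, −0.35 with upper-quartile factors and −0.38 without day 16 replicate 1 for the former, and at −0.32 and −0.31 without day 16 replicates 1 and 2 for the latter.

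*WWTR1* lies on chromosome 3 from 149517235 to 149736714 on the minus strand. *WWTR1* measured 51.8 and 55.6 CPM (day 16), 57.9 and 63.1 (day 23), 78.8 and 74.4 (day 31), 91.2 and 103 (day 38) and 134 and 119 (day 45). No library of a later day was below a library of an earlier one. The weekly steps of 0.17, 0.34, 0.34 and 0.38 on the log2 scale were not called, whereas the whole course was, with a log2 fold change of 1.23 (SE 0.17, adjusted p = 4.8e-07 in edgeR), or 2.35-fold. It stayed between 1.15 and 1.32 with each library left out. An antisense gene, *WWTR1-AS1*, lies within *WWTR1* and had 0 to 32 counts in a library, and the strand setting of the counting is not given in the sources used here.

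The balance of the co-activators changed with these courses. Per kilobase of canonical transcript (5401 and 5037 bases), *YAP1* was 9.39 and 9.79 times as abundant as *WWTR1* in the day 16 libraries, 7.43 and 6.29 times (day 23), 5.08 and 4.86 (day 31), 4.18 and 3.79 (day 38) and 2.30 and 2.64 (day 45). The days did not overlap in this ratio. *WWTR1* made up 9.62 and 9.26% of the summed level at day 16 and 30.3 and 27.4% at day 45. The sum of both, per kilobase, was 107 and 119 CPM at day 16 and 87.6 and 86.2 at day 45. *YAP1* remained the more abundant of the pair in every library. Ratio and share depend on the length used. By the length of all annotated exons (6311 and 8353 bases), the means of *YAP1* and *WWTR1* were 87.7 and 6.43 CPM per kilobase at day 16. They were 52.9 and 15.1 at day 45, so the share of *WWTR1* was smaller by that length at both days and also rose. No test was run on the ratio, since each of its parts was tested above.

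**Figure D1:**
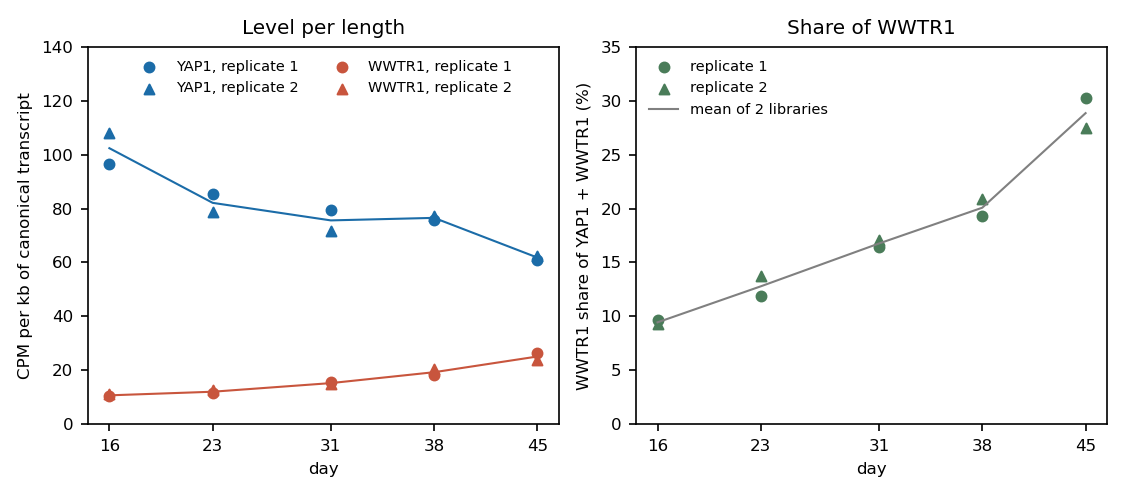
Left, CPM per kilobase of canonical transcript of *YAP1* (blue) and *WWTR1* (red) in each library against day, with lines through the means of 2 libraries; right, the share of *WWTR1* in the sum of both, in percent. The share by this length was 9.62 and 9.26% at day 16 and 30.3 and 27.4% at day 45.

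*TEAD1* encodes a DNA-binding factor through which YAP and TAZ reach their targets, and lies on chromosome 11 from 12674421 to 12944737. *TEAD1* measured 305 and 295 CPM (day 16), 228 and 220 (day 23), 176 and 235 (day 31), 262 and 281 (day 38) and 241 and 251 (day 45). The day 16 libraries were the highest, and the libraries of day 31 lay far apart, on either side of day 23. The fall to day 23 of 0.42 on the log2 scale (SE 0.13, adjusted p = 0.035 in edgeR) and the rise from day 31 to day 38 of 0.40 (SE 0.13, adjusted p = 0.0388 in edgeR) were close to the threshold. The first was lost with library size alone (−0.38), without day 16 replicate 1 (−0.39) or 2 (−0.45) and without day 23 replicate 1 (−0.45) or 2 (−0.40). The second was lost with library size alone (0.19) and upper-quartile factors (0.35), without day 23 replicate 1 or 2 (0.40 in each case), without day 31 replicate 1 (0.21) and without day 38 replicate 1 (0.45) or 2 (0.35).

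Among 7 other TEAD factors and cofactors, the changes were larger in single genes. From day 16 to day 45, *TEAD4* fell by 3.33 and *TEAD2* by 1.10 on the log2 scale, and *VGLL3*, a TEAD-binding cofactor, rose by 1.47 (adjusted p = 2.1e-05, 2.1e-05 and 0.00194 in edgeR). *TEAD4* went from 25.7 and 13.2 CPM at day 16 to 2.47 and 1.42 at day 45, *TEAD2* from 83.2 and 60.1 to 33.7 and 33.1, and *VGLL3* from 12.5 and 11.1 to 31.1 and 34.5. In each of these genes the libraries of the first and last day did not overlap. Of the 7 genes, 1 was called higher and 2 lower over the course (12.9% and 11.7% of all genes), with a median log2 fold change of −0.05 against 0 over all genes. *TEAD3*, at 55.5 to 61.9 CPM as a daily mean, was not called in any comparison, and *VGLL1* and *VGLL2* were between 0 and 1.35 CPM in every library.

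*CCN1* and *CCN2* encode secreted matricellular proteins that bind integrins, and are the most used readouts of YAP and TAZ. *CCN1* lies on chromosome 1 from 85580761 to 85584589 and is also an immediate early gene. *CCN1* measured 464 and 472 CPM (day 16), 304 and 295 (day 23), 203 and 234 (day 31), 341 and 318 (day 38) and 402 and 406 (day 45). The days did not overlap, and the values went down to day 31 and up again from there. The gene fell by 0.64 from day 16 to day 23 (SE 0.12, adjusted p = 0.000281 in edgeR) and by 0.45 to day 31 (SE 0.12, adjusted p = 0.0375 in edgeR), and rose by 0.59 to day 38 (SE 0.12, adjusted p = 0.000559 in edgeR). The last step, 0.29 to day 45, was not called (adjusted p = 0.126 in edgeR) and passed the threshold with DESeq2 (0.34) and upper-quartile factors (0.35). The step to day 31 was lost with library size alone (−0.43) and without day 23 replicate 1 (−0.43) or 2 (−0.48), day 31 replicate 1 (−0.36) or 2 (−0.57), or day 38 replicate 1 or 2 (−0.45 in each case).

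*CCN2*, on chromosome 6 from 131948176 to 131951372, whose 3 TEAD motifs are printed above, had a different course. *CCN2* measured 273 and 338 CPM (day 16), 242 and 258 (day 23), 260 and 247 (day 31), 483 and 424 (day 38) and 235 and 291 (day 45). Both day 38 libraries were above all others, and the libraries of day 45 overlapped those of days 16, 23 and 31. *CCN2* rose by 0.84 from day 31 to day 38 (SE 0.13, adjusted p = 1.5e-05 in edgeR), a 1.79-fold change, and fell by 0.78 to day 45 (SE 0.13, adjusted p = 6.4e-05 in edgeR). Between days 16 and 45 there was no call, at −0.21 (SE 0.13). Without day 16 replicate 1, the step from day 16 to day 23 passed the threshold at −0.42, against −0.29 with all libraries. *LINC01013*, annotated across *CCN2* on the opposite strand, had 0 to 4 counts in a library.

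*CCN2* is also induced by TGFβ, and the step at which it fell is the one over which SB431542 was given. The text of the study puts the start of SB431542 both at day 38 and shortly before it. Whether the cells of day 38 had already received it is therefore not settled by the sources. *SMAD7*, a direct TGFβ target that feeds back on the pathway, went from 114 and 102 CPM at day 38 to 61.2 and 57.0 at day 45 (−0.87 on the log2 scale, adjusted p = 9.2e-05 in edgeR), and had already fallen by 0.74 from day 31 to day 38. Of 6 TGFβ response genes, 1 was called lower and 0 higher at this step (6.35% and 4.85% of all genes), with a median of −0.15 against −0.02 over all genes. The part of TGFβ signalling in the course of *CCN2* was not tested.

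*ANKRD1* encodes an ankyrin repeat protein known from stretched cardiac muscle, lies on chromosome 10 from 90912096 to 90921087 and had the lowest mean CPM of the members at every day. *ANKRD1* measured 41.1 and 46.5 CPM (day 16), 21.4 and 18.5 (day 23), 32.2 and 21.4 (day 31), 29.3 and 29.6 (day 38) and 17.0 and 36.6 (day 45). Both day 16 libraries were above all others, and the day 45 libraries, which rest on 117 and 335 counts, lay on either side of all libraries of days 23, 31 and 38. The fall of 1.13 to day 23 was called (SE 0.30, adjusted p = 0.00896 in edgeR), and this call was lost without day 16 replicate 2 (−1.04) or day 23 replicate 2 (−1.03). No later step was called. Day 45 against day 16 had a log2 fold change of −0.70 (SE 0.29, adjusted p = 0.0805 in edgeR), which passed the threshold at −1.37 without day 45 replicate 2, and also with library size alone (−0.79), without the filter (−0.71) and with the replicate block (−0.71).

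Cardiac muscle and stromal genes, which the organoids' cardiovascular cells and fibroblasts express, were measured beside these targets. The 9 cardiovascular markers summed to 57.1 to 120 CPM in the libraries of days 16, 23 and 31. At days 38 and 45 they summed to 409 to 434 CPM. Of these markers *RYR2* had the highest CPM, which is not corrected for length. From day 31 to day 38, 7 of these 9 were called higher (8.80% of all genes were), with a median log2 fold change of 2.45 against 0 over all genes, while *ANKRD1* had 0.13 and was not called. *TNNT2*, a defining marker, was at 1.71 to 9.34 CPM as a daily mean, and no cardiovascular marker was at 0 at days 38 and 45. The 6 fibroblast markers, led by *COL3A1*, summed to 663 and 924 CPM at day 16 and to 3493 and 2814 CPM at day 45, and 5 of them were called higher and 1, *PRRX1*, lower between these days (12.9% and 11.7% of all genes). The 3 goblet cell markers summed to at most 3.57 CPM at day 16 and to 102 and 56.2 CPM at day 45, and all 3 were called higher (12.9% of all genes were). Most of the sum at day 45 was *MUC5B*, at 96.5 and 47.4 CPM, while *MUC5AC* was at 29.7 and 21.9 CPM at day 38 and at 0.435 and 2.07 at day 45, a called fall. The 4 airway basal markers summed to 25.2 and 15.5 CPM (day 16), 5.98 and 5.60 (day 23), 15.5 and 28.4 (day 31), 26.8 and 24.3 (day 38) and 54.3 and 43.7 (day 45). Of these, *KRT5*, at no more than 0.127 CPM up to day 23 and at 36.9 and 28.2 at day 45, and *KRT14*, at 0 in all libraries of days 16 and 23 and at 7.11 and 2.51 CPM at day 45, were called higher over the course. *TP63*, at 15.2 and 10.6 CPM at day 16 and 7.40 and 10.5 at day 45, and *KRT15*, at 9.89 and 4.92 and then 2.90 and 2.51, were not called between these days. The 3 endothelial markers, led by *KDR*, summed to 10.0 to 36.3 CPM, and *PECAM1*, a defining marker, was at 0 in every library up to day 31 and at most 1.53 CPM after it. The 4 epithelial markers, led by *KRT8* or *CDH1*, summed to 1304 to 2208 CPM. The step at which *CCN1* and *CCN2* rose, day 31 to day 38, is also the one at which 7 of the 9 cardiovascular markers and 3 of the fibroblast markers rose. At that step another fibroblast marker, *LUM*, fell from 96.2 and 101 CPM to 46.2 and 37.7 (−1.23 on the log2 scale). Between the first day and the last, the fibroblast markers summed to 1396 and 1345 CPM (day 23), 1134 and 1411 (day 31) and 3181 and 3341 (day 38). The part of these cell types in the results was not tested.

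**Figure D2:**
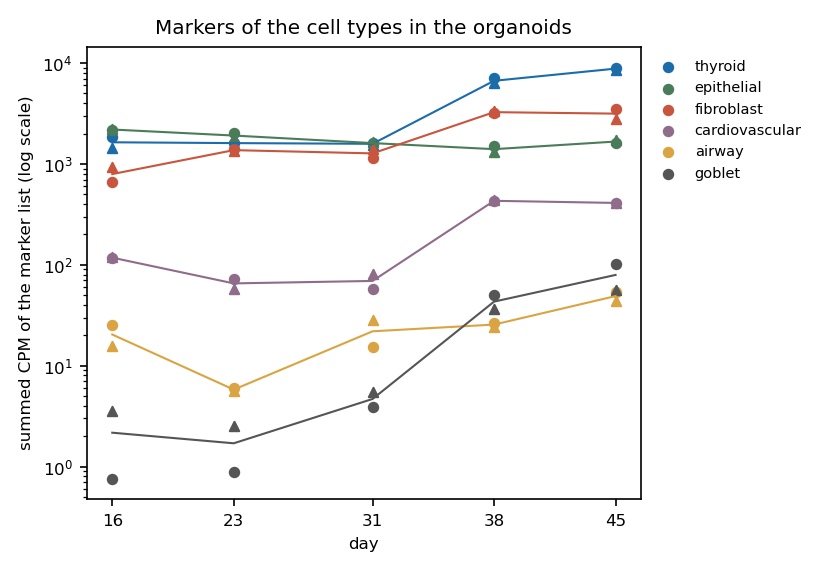
Summed TMM-scaled CPM of the marker lists of 6 cell types in each library (vertical axis, log scale) against day; circles and triangles are replicates 1 and 2 and lines join the means of 2 libraries. Cardiovascular markers were at 57.1 to 120 CPM up to day 31 and at 409 to 434 CPM from day 38.

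The motin proteins bind YAP and TAZ, hold them at junctions and actin and activate LATS kinases, and their genes diverged. *AMOTL2*, a target and brake of YAP, lies on chromosome 3 from 134355347 to 134375479. GENCODE also annotates a pseudogene, *RPL39P5*, on the same strand over bases 134355347 to 134356561, which could affect the counts of *AMOTL2*. *AMOTL2* measured 210 and 208 CPM (day 16), 110 and 132 (day 23), 151 and 123 (day 31), 74.7 and 79.3 (day 38) and 177 and 181 (day 45). The day 38 libraries were below all others, and the day 45 libraries were above those of days 23, 31 and 38 and below those of day 16. It fell by 0.79 to day 23 (SE 0.15, adjusted p = 0.00022 in edgeR) and by 0.83 from day 31 to day 38 (SE 0.15, adjusted p = 7.5e-05 in edgeR). From day 38 to day 45 it rose by 1.21 (SE 0.15, adjusted p = 2.4e-07 in edgeR), or 2.32-fold, the largest change of any member between neighbouring days. At both of these last steps *CCN2* was called in the opposite direction.

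*AMOTL1*, on chromosome 11 from 94706431 to 94876748, stayed between 118 and 159 CPM in all libraries up to day 38. At day 45 it was at 77.2 and 108 CPM, below every earlier library. The fall of 0.55 from day 38 was called (SE 0.16, adjusted p = 0.0193 in edgeR), and the call was lost without day 38 replicate 2 (−0.42) or day 45 replicate 1 (−0.33). Over the whole course *AMOTL1* had no call (−0.35), though it passed the threshold with library size alone (−0.44) and without day 45 replicate 2 (−0.61). *AMOT*, the founding motin, was measured as part of the list of regulators and first rose, by 0.54 from day 16 to day 23 (adjusted p = 0.0377 in edgeR). *AMOT* measured 76.7 and 68.9 CPM (day 16), 112 and 99.1 (day 23), 125 and 127 (day 31), 76.8 and 60.4 (day 38) and 28.0 and 25.1 (day 45), and the libraries of day 45 were below all others. Its log2 fold changes were −0.88 from day 31 to day 38 and −1.37 from day 38 to day 45 (adjusted p = 0.000282 and 1.1e-06 in edgeR).

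*AJUBA* encodes a LIM protein that recruits LATS kinases to junctions under tension, and lies on chromosome 14 from 22971177 to 22982551. *AJUBA* measured 112 and 109 CPM (day 16), 89.1 and 78.2 (day 23), 80.3 and 83.9 (day 31), 48.0 and 43.1 (day 38) and 43.7 and 35.9 (day 45). The libraries of days 38 and 45 were all below those of days 16, 23 and 31. The fall of 0.85 from day 31 to day 38 was called (SE 0.18, adjusted p = 0.000667 in edgeR), and over the whole course *AJUBA* fell by 1.48 (SE 0.18, adjusted p = 5.6e-08 in edgeR), at 36.0% of the day 16 mean. GENCODE also annotates a second protein-coding gene on the same strand over bases 22971177 to 22982258 of the locus, so the counts of *AJUBA* are uncertain to that extent.

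*LATS2*, on chromosome 13 from 20973036 to 21061586, encodes the kinase that phosphorylates YAP and TAZ and is itself one of their targets. It was at 79.2 and 70.7 CPM at day 16 and between 45.7 and 61.3 CPM in the other libraries. The fall to day 23, −0.62 (SE 0.19, adjusted p = 0.03 in edgeR), was called, but not without day 16 replicate 1 (−0.52), day 23 replicate 1 (−0.52) or day 23 replicate 2 (−0.71). No other comparison of *LATS2* was called. Its paralogue *LATS1*, at 122 to 156 CPM as a daily mean, was not called in any comparison.

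The levels of members can be ordered only per length. By canonical transcript, *CCN1* (205 ± 2.57 CPM per kilobase, SD, n = 2), *CCN2* (131 ± 19.8) and *YAP1* (102 ± 8.16) led at day 16, followed by *AMOTL2* (42.9 ± 0.27) and *TEAD1* (31.9 ± 0.75). *AJUBA* (26.5 ± 0.38) and *ANKRD1* (24.5 ± 2.16) came next and did not differ beyond their spread. *LATS2* (13.5 ± 1.09) and *AMOTL1* (13.2 ± 0.037) did not either, and *WWTR1* was last at 10.7 ± 0.53. At day 45 the order was *CCN1* (177 ± 1.27), *CCN2* (113 ± 16.9), *YAP1* (61.8 ± 1.04), *AMOTL2* (36.7 ± 0.55), *TEAD1* (26.1 ± 0.76) and *WWTR1* (25.1 ± 2.04), the last of which had left its place at the end and was within the spread of *TEAD1*. Where the length of all annotated exons is used, *CCN1* and *CCN2* exchange places at both of these days but do not differ beyond their spread. By that length they were at 127 ± 1.58 and 131 ± 19.8 at day 16, and at 109 ± 0.78 and 113 ± 16.9 at day 45. *ANKRD1* (24.5 ± 2.16) then stands above *AJUBA* (18.8 ± 0.27) at day 16, and *WWTR1* (15.1 ± 1.23) is below *TEAD1* (22.96 ± 0.67) by more than their spread at day 45.

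Among weekly steps, the members were called most often from day 16 to day 23 and from day 31 to day 38. From day 16 to day 23, 0 of 10 were called higher and 5 lower (*TEAD1*, *CCN1*, *ANKRD1*, *AMOTL2* and *LATS2*), while 10.9% of all genes tested were called, 5.60% higher and 5.33% lower. The median log2 fold change of the 10 was −0.41 against −0.02 over all genes. The 5 calls were reduced to 3 without day 16 replicate 2 or day 23 replicate 1 and to 2 without day 23 replicate 2. From day 23 to day 31, 0 of 10 were called higher and 1 lower, *CCN1*, with 2.25% of all genes called, 1.58% higher and 0.666% lower.

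From day 31 to day 38, 3 of 10 were called higher (*TEAD1*, *CCN1* and *CCN2*) and 2 lower (*AMOTL2* and *AJUBA*), with 15.0% of all genes called, 8.80% higher and 6.23% lower. This is the step most sensitive to scaling, since with library size alone the median of all genes was −0.20 in place of 0 and 33.3% of the calls over all genes were higher in place of 58.5%. With that scaling *CCN1* (0.37), *CCN2* (0.62), *AMOTL2* (−1.05) and *AJUBA* (−1.07) were still called, *TEAD1* (0.19) was not, and *YAP1* (−0.20) and *ANKRD1* (−0.09) turned negative. From day 38 to day 45, 1 of 10 was called higher (*AMOTL2*) and 2 lower (*CCN2* and *AMOTL1*), with 11.2% of all genes called, 4.85% higher and 6.35% lower. Day 45 against day 16 gave 1 higher (*WWTR1*) and 2 lower (*YAP1* and *AJUBA*), with 24.6% of all genes called, 12.9% higher and 11.7% lower. With library size alone this became 1 higher and 5 lower, and without day 45 replicate 2 it was 5 calls in all. *CCN1*, *CCN2* and *AMOTL2*, which moved between, were not called between the first day and the last, with log2 fold changes of −0.21, −0.21 and −0.22. Comparisons of neighbouring days share the libraries of the day between.

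**Figure D3:**
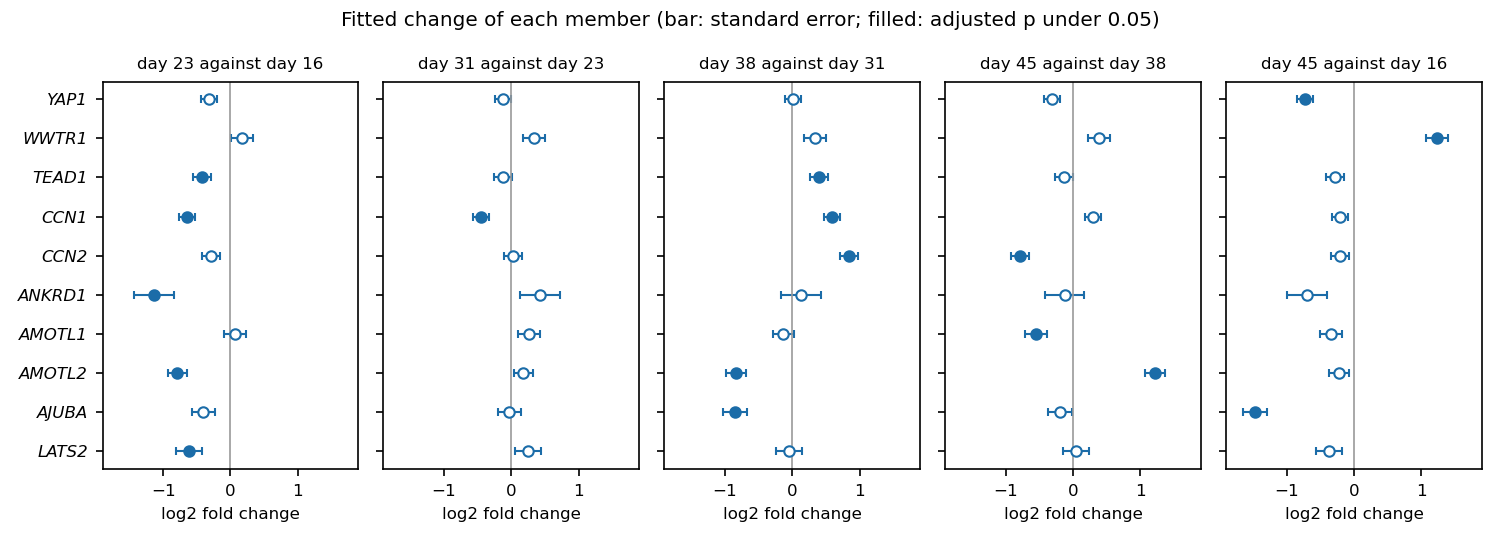
Fitted log2 fold change (horizontal axis) of the 10 genes in 5 comparisons of days; bars are SEs, and filled points passed an adjusted p of 0.05 in edgeR's quasi-likelihood test over 21014 genes. At the step from day 31 to day 38 *CCN2* (0.84) and *AMOTL2* (−0.83) stand on opposite sides, and from day 38 to day 45 they change sides (−0.78 and 1.21).

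Other target genes of YAP and TAZ, a list of 17 genes without the members above, were called in both directions. From day 16 to day 23, 4 were called higher and 3 lower (5.60% and 5.33% of all genes), and from day 23 to day 31, 2 and 1 (1.58% and 0.666%). From day 31 to day 38, 3 and 3 were called (8.80% and 6.23%), and from day 38 to day 45, 4 and 1 (4.85% and 6.35%). Between days 16 and 45, 5 were higher and 2 lower (12.9% and 11.7%), with a median log2 fold change of 0.14 against 0 over all genes. *MYOF*, a membrane repair ferlin, fell from 40.3 and 40.0 CPM at day 16 to 14.6 and 20.9 at day 23 (−1.18 on the log2 scale). It then stood at 40.7 and 46.9 CPM (day 31), 190 and 212 (day 38) and 222 and 250 (day 45). The rise from day 31 to day 38 was 2.20 on the log2 scale (SE 0.17, adjusted p = 3.3e-12 in edgeR), and its libraries of these days did not overlap.

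*IGFBP3*, which binds insulin-like growth factors, went from 2.92 and 5.05 CPM at day 16 to 48.5 and 43.0 (day 23), 78.4 and 55.5 (day 31), 31.3 and 34.9 (day 38) and 151 and 83.9 (day 45). It was called higher to day 23 (3.51), lower to day 38 (−1.02) and higher to day 45 (1.82). *F3*, which encodes tissue factor, was at 14.3 and 9.73 CPM at day 16 and 127 and 151 at day 45, a rise of 3.53 (SE 0.23, adjusted p = 3.3e-14 in edgeR). *GADD45A*, a stress-response gene, and *NUAK2*, a kinase that feeds back on YAP, moved as *AMOTL2* did over the last week. *GADD45A* was at 22.6 and 22.8 CPM at day 38 and 73.7 and 97.4 at day 45 (1.92 on the log2 scale, adjusted p = 7.9e-08 in edgeR), and *NUAK2* was at 17.7 and 18.0, then 48.3 and 55.4 (1.54 on the log2 scale, adjusted p = 3.9e-05 in edgeR). *RBMS3* was the target called lower at this step (−0.98), and *PTPN14* and *TGFB2* were those lower at day 45 than at day 16 (−0.95 and −0.80).

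**Figure D4:**
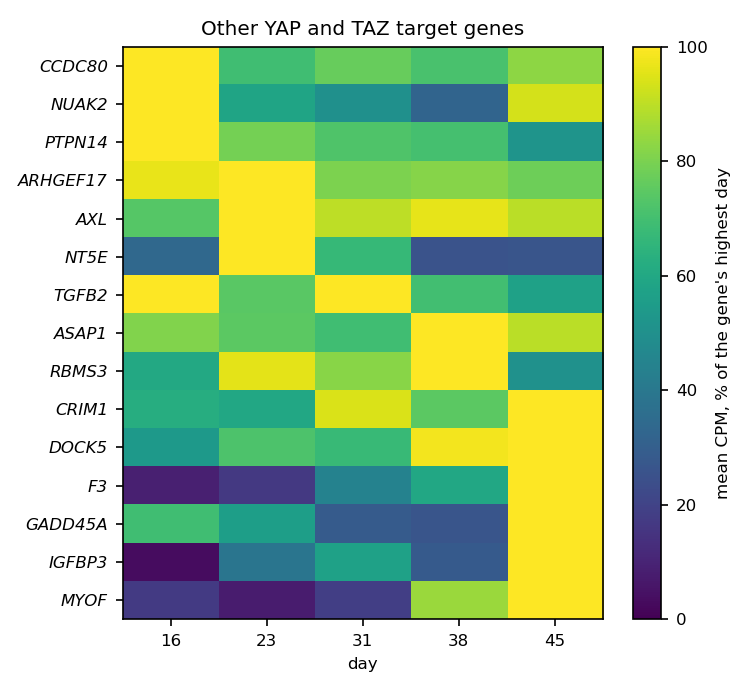
Mean CPM of 2 libraries per day of the 15 other YAP and TAZ target genes with a mean of at least 5 CPM, as percent of each gene's highest day (colour), with genes in rows ordered by that day and days in columns. The highest day, which was not tested, was day 45 for 6 of the 15 genes and day 16 for 3.

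A further list held *SRF*, its cofactor genes *MRTFA* and *MRTFB* and actin cytoskeleton genes that they drive, and most of it was higher at the last day. Of the 12 genes of this list, 8 were called higher and 1 lower at day 45 than at day 16 (12.9% and 11.7% of all genes). The median log2 fold change was 0.86 against 0 over all genes. *SRF* itself went from 37.9 and 27.9 CPM at day 38 to 130 and 115 at day 45 (1.89 on the log2 scale, adjusted p = 1.2e-07 in edgeR). *CNN1*, a smooth muscle calponin, stood at 14.7 and 12.7 and then at 47.9 and 39.3 CPM (1.67 on the log2 scale, adjusted p = 0.00119 in edgeR). *CCN2*, a target shared with SRF, fell at that step. Of the genes of this list known from smooth muscle, *ACTA2*, *TAGLN* and *CNN1* rose from day 31 to day 38 by 3.84, 1.39 and 1.59. *MYL9*, also expressed in smooth muscle, went the other way, from 126 and 133 CPM at day 31 to 106 and 95.5 at day 38. The cardiovascular markers rose at the same step, and *ACTA2* is 1 of those 9 markers. The part of these cells was not tested.

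The Hippo kinases, adaptors and upstream regulators, 26 genes all of which were tested, differed in how much they moved. *STK4*, *LATS1*, *MOB1A*, *MOB1B* and *NF2* were not called in any comparison, and *SAV1*, the scaffold of the upstream kinases, fell by 0.96 between days 16 and 45 (adjusted p = 0.000156 in edgeR). *STK3*, one of those kinases, rose by 0.68 from day 31 to day 38 (adjusted p = 0.0372 in edgeR). At the upper end of the pathway, the atypical cadherins *FAT4* and *DCHS1*, which bind each other across cells, fell over the last week by 0.90 and 1.00 (adjusted p = 5.4e-06 and 5.6e-05 in edgeR). The week before, *FAT4* had gone up from 151 and 153 CPM at day 31 to 259 and 276 at day 38, the day of its highest mean. Of the 26 genes, 2 were called higher and 3 lower from day 31 to day 38 (8.80% and 6.23% of all genes), and 0 higher and 5 lower from day 38 to day 45 (4.85% and 6.35%). Between days 16 and 45, 4 were higher and 8 lower (12.9% and 11.7%), among them *AMOT* (−1.46) and *DCHS1* (−1.53), with *WWC1*, which encodes the adaptor KIBRA, higher by 1.15. The median over the list was −0.18 against 0 over all genes.

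Signs of dissociation were measured because *CCN1* responds within minutes to stimuli. The 10 dissociation and immediate early genes, led by *EGR1* in every library, summed to 5831 to 7718 CPM in the libraries of days 16 to 38 and to 4224 and 3857 CPM at day 45. From day 38 to day 45, 2 of them were called higher and 5 lower, against 4.85% and 6.35% of all genes. *FOS* fell by 2.02 and *EGR1* by 0.98 (adjusted p = 5.7e-15 and 3e-06 in edgeR), and *ATF3* rose by 0.98 and *FOSB* by 0.81 (adjusted p = 4.2e-06 and 4.8e-05 in edgeR). From day 16 to day 23, where *CCN1* was called lower, *FOSB* fell by 0.90 and *ATF3* by 0.85 (adjusted p = 9.8e-06 and 6.8e-05 in edgeR). At that step *FOS* (−0.09) and *EGR1* (−0.20) were not called, and *JUN* went from 777 and 727 CPM to 990 and 928. The part of dissociation in the course of *CCN1* was not tested. Among 6 dexamethasone response genes, 3 were called higher and 0 lower from day 31 to day 38 (8.80% and 6.23% of all genes), led by *FKBP5* with a log2 fold change of 2.02. The part of glucocorticoid in the rise of *CCN1* and *CCN2* was not tested.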

How the data were processed

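The authors' processing used Trimmomatic, then HISAT2 against GRCh38, then HTSeq on the Ensembl annotation of GRCh38.p13, and the deposited values are raw counts per gene symbol, whole numbers without normalization. Versions and the strand setting are not given in the sources used here, and no molecular identifiers are named, so copies made by PCR count like molecules. Library totals were 7247268 to 10333933.

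From these counts, the 21014 genes reaching 5 counts in 2 or more libraries were fitted in R 4.3.3 with edgeR 4.0.16 (TMM factors, glmQLFit and glmQLFTest, a mean per day over all 10 libraries, 5 residual degrees of freedom), with Benjamini-Hochberg adjustment and a threshold of 0.05. The SE of a log2 fold change is its size over the root of the F statistic. Alternatives were DESeq2 1.42.0, library size alone, upper-quartile factors, no filter, filterByExpr, the replicate number as a block and each library left out. The script was tested on simulated counts. Replicates of a day differed by more than sampling noise (chi-square per degree of freedom 8.38 to 13.7) and were counted separately, since the study calls them biological replicates.

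All members are named. Of a list, the genes given with values include many that rose or fell most among its called genes in a comparison, but not all of them. The others named, such as *TEAD3*, *SAV1*, *LATS1* and *TNNT2*, were picked with their values already seen. The members and lists were chosen with earlier results of these data known. Positions and exon lengths came from GENCODE 44 on GRCh38, in which all 10 members were matched. Promoter windows came from RefSeq (GRCh38.p14), which held 8 of them.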

Additional observations from a re-analysis of the deposited data

How the results depend on the processing

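Of the 17 calls of members in the 5 comparisons of days, 11 held under all 6 alternatives and with each of the 10 libraries left out, where the lone library of a day is assumed to vary like the other days. These were *YAP1*, *WWTR1* and *AJUBA* over the whole course, *CCN1* to day 23 and to day 38, both steps of *CCN2*, the 3 steps of *AMOTL2* and *AJUBA* to day 38. The 6 others are named with their values in the results, and 7 of the 33 comparisons without a call gained one under some alternative. With library size alone, 0 members were called from day 23 to day 31 and 6 between days 16 and 45. *YAP1* from day 31 to day 38 (0.02) was −0.0088 with DESeq2, −0.20 with library size alone and −0.034 with upper-quartile factors, and *ANKRD1* (0.13) was −0.087 with library size alone, where the median of all genes was −0.20.

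Leaving out single libraries gave 1350 to 2383 genes called to day 23, 206 to 646 to day 31, 1764 to 3613 to day 38 and 1166 to 2815 to day 45. Changes of over 1.5 times came to day 23 without its replicate 1 (1461) or 2 (1350), and to day 31 without day 23 replicate 1 (249) or 2 (246) or day 31 replicate 1 (206) or 2 (288). They came to day 38 without day 31 replicate 1 (1973) or day 38 replicate 1 (1764) or 2 (1842), and to day 45 without day 38 replicate 1 (1300) or 2 (1166) or day 45 replicate 1 (1568). Members called ranged from 2 to 5, 0 to 1, 4 to 5 and 2 to 4 over these steps, and from 3 to 5 between days 16 and 45, with 5 without day 45 replicate 2. Those that differed between any days ranged from 7 to 9. Some log2 fold changes without a call changed sign when a library was left out. From day 23 to day 31 they ranged from −0.35 to 0.067 for *TEAD1*, −0.024 to 0.069 for *CCN2* and −0.12 to 0.070 for *AJUBA*. From day 31 to day 38 they ranged from −0.061 to 0.093 for *YAP1*, −0.14 to 0.46 for *ANKRD1* and −0.17 to 0.067 for *LATS2*, and from day 38 to day 45 from −0.79 to 0.32 for *ANKRD1* and −0.076 to 0.16 for *LATS2*.

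Same-numbered libraries of different days did not deviate together (r of −0.08 to 0.08 over 10 pairs of days), so the numbers do not pair the samples. The replicate block called 2703 genes to day 23, 678 to day 31, 3472 to day 38 and 2691 to day 45, and the members it called were 5, 1, 5 and 3. Depth limits *ANKRD1* most, at 117 to 378 counts in a library.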

Other observations

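Genes whose course over the 10 libraries was most like that of a member were read from 13105 genes with a mean of at least 5 CPM. The points share their libraries and fall into days, so the correlations describe courses and carry no test. For *YAP1* they were *HIBADH* (Pearson r = 0.994), *TRIM24* (0.978) and *TSPAN2* (0.973), of which *TSPAN2* had a mean of 57.9 CPM at day 16 and 7.09 at day 45. For *WWTR1* they were *LRRC32* (0.987), *PHLDA1* (0.984) and *KLF6* (0.982), of which *PHLDA1* had means of 64.6 and 540 CPM at these days and *KLF6* 62.5 and 492. For *TEAD1* they were *MED30* (0.973), *SUPT3H* (0.972) and *KLHL3* (0.955).

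For *CCN1* the most alike genes were *TCEA2* (Pearson r = 0.952), *SLC22A23* (0.947) and *RBM24* (0.939), for *CCN2* *MLLT11* (0.947), *BNIP3L* (0.946) and *WDR60* (0.944), and for *ANKRD1* *GSTZ1* (0.933), *CCDC162P* (0.922) and *KNL1* (0.918). Among the members themselves, *AJUBA* and *WWTR1* had r = −0.94, *YAP1* and *WWTR1* −0.87, *CCN1* and *TEAD1* 0.82, and *CCN1* and *CCN2* 0.21 over the same 10 libraries.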
